A study of Mus musculus with 8 samples.

Results

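Gfap, Vim, Nes and Synm encode the intermediate filament proteins of glial and immature neural cells: glial fibrillary acidic protein, vimentin, nestin and synemin. The 4 genes were picked by name, with earlier results of these libraries known, and all 4 were present among the 12339 genes of the deposited expression table. The libraries came from a RiboTag experiment in mouse retina, in which a tagged ribosomal protein lets the ribosomes of Cre-expressing cells be pulled down together with the RNA on them. The cells were labelled as Müller cells, the radial glia that span the retina. All retinas were taken at postnatal day 14 of oxygen-induced retinopathy (OIR), in which pups are exposed to high oxygen and then returned to room air.

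The groups were 4 libraries with a conditional knockout of the transcription factor Nrf2 in Müller cells (cKO) and 4 wild-type libraries (WT), numbered 1, 3, 4 and 5 in each group. OIR and RiboTag were shared by both groups, and no untreated retina was analysed here. The labels do not give the Cre driver, the deleted exon, the sex or strain of the mice, whether the WT mice carried Cre, or whether a library was a single animal or a pool. The p-values therefore measure the spread between these libraries, which may be technical.

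Intermediate filaments are rope-like polymers of the cytoskeleton. Vimentin is made by Müller cells of the healthy retina, whereas Gfap is normally strongest in the astrocytes of the inner surface and appears in Müller cells when the retina is injured, detached or short of oxygen. Nestin and synemin do not build filaments readily on their own and are incorporated into filaments of vimentin or Gfap. Induction of Gfap in Müller cells is a standard sign of gliosis, and signalling through gp130 cytokine receptors and STAT3 is a well-described route to it.

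Gfap (ENSMUSG00000020932) lies on the minus strand of chromosome 11 of GRCm38, from 102887336 to 102900912. Its longest coding transcript in GENCODE release M21, Gfap-201, has 9 exons, 2648 bases and 430 codons. Vim (ENSMUSG00000026728) lies on the plus strand of chromosome 2, from 13573927 to 13582826, with 9 exons, 2193 bases and 466 codons. Nes (ENSMUSG00000004891) lies on the plus strand of chromosome 3, from 87971078 to 87980451, with 4 exons, 6126 bases and 1864 codons. Synm (ENSMUSG00000030554) lies on the minus strand of chromosome 7, from 67730160 to 67759742, with 4 exons, 7818 bases and 1561 codons. Gfap overlaps the lincRNA gene Gm26668 on the opposite strand, and Synm overlaps Ttc23 and Gm45102 on the opposite strand. The libraries were made with a directional kit, but the strand setting of the counting is not given in the sources used here, so reads of these overlapping pairs may have been shared. The locus deposited with the Gfap values runs from 102838472 to 103101658, and that of Synm from 67647409 to 67762912. Both are wider than the gene models above, whereas the loci of Vim and Nes match theirs. Whether the wider loci affect the levels of Gfap and Synm was not tested.

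The promoter of Gfap is shown because Gfap was the member that differed most and because its start holds the letters of a STAT-type motif. The stretch is chr11:102897191-102897450 on the minus strand (RefSeq, GRCm38.p6), written 5′ to 3′, with 250 bases before the RefSeq transcription start and 10 bases from it. Capitals mark the match to the motif TTCNNNGAA, which covers positions −2 to 7, counted from 1 at the start with no position 0.
Gfap: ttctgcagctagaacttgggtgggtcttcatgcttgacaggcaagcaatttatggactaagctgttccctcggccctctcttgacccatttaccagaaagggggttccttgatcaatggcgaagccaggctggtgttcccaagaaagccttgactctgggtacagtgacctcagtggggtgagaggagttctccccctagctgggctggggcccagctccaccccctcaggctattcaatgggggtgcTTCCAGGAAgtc
The search covered both strands of windows from 250 bases before to 50 bases after each start. TTCNNNGAA was found in 8.30% of 32851 such windows and in 6.50% of the windows of genes in the deposited table, and it was absent from the windows of Vim, Nes and Synm. Among the reactive glia genes listed below, 2 of the 14 with a window held it. Of the genes whose pattern was most like that of Gfap, 3 had a window and 0 held it. The AP-1 motif TGANTCA was found in none of the 4 windows and in 7.81% of all windows. The antioxidant response element TGACNNNGC, the type of letters to which Nrf2 binds, was found once in the Nes window, at positions 2 to 10, in none of the other windows, and in 12.4% of all windows. TATAAA was found in the Vim window, at positions −32 to −27, and in 13.6% of all windows. CCAAT was found at 2 places in the Vim window and at 1 in the Synm window, against 37.4% of all windows. These matches describe letters only, and no binding was measured.

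Vim was by far the most abundant member. Levels are given as FPKM, fragment counts that the authors scaled to transcript length and to the size of the library, so levels of different genes can be set side by side. Vim ranked between 5th and 23rd of all genes in cKO libraries and between 9th and 27th in WT libraries. Gfap ranked between 122nd and 430th in cKO libraries and between 386th and 1692nd in WT libraries. Nes and Synm were near the middle of the table or below it, between the ranks 4390 and 8258 in cKO libraries and 5817 and 8565 in WT libraries. Vim exceeded Gfap, and Gfap exceeded Nes and Synm, in each of the 8 libraries. The levels of Nes and Synm overlapped, although within a library the ratio of Nes to Synm was 1.04 to 2.13 in cKO and 1.02 to 1.65 in WT.

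Gfap was at 155, 304, 241 and 174 FPKM in cKO libraries 1, 3, 4 and 5, against 56.3, 89.4, 166 and 55.3 FPKM in WT libraries 1, 3, 4 and 5. The 3 lowest WT libraries lay below all cKO libraries, but WT 4 lay above cKO 1, so the groups overlapped. None of the 4 filament genes had all cKO values above all WT values, a pattern seen in 2.06% of all genes, or all below, seen in 2.28%. Means were 218 ± 68.0 FPKM in cKO and 91.7 ± 51.8 FPKM in WT (SD, n = 4 each), and the exact two-sided permutation p was 0.0571, where 70 assignments allow none below 0.0286. Within same-numbered pairs, cKO exceeded WT by 2.75-fold in pair 1, 3.398-fold in pair 3, 1.46-fold in pair 4 and 3.14-fold in pair 5. Pair 4 had the highest WT level and the smallest difference. Of all genes 16.7% were higher in cKO in all 4 pairs, and Gfap was the only member among them.

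**Figure D1:**
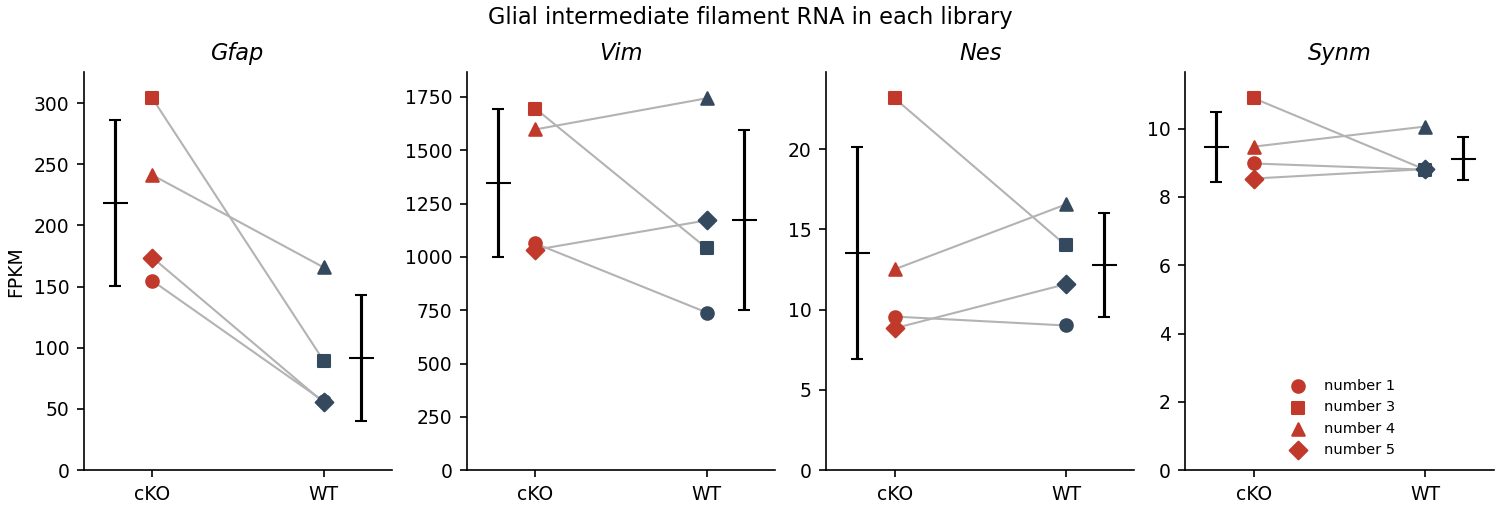
FPKM of Gfap, Vim, Nes and Synm (y axes from 0) in the 4 cKO libraries at left and the 4 WT libraries at right of each panel. Markers give the library number, grey lines join equal numbers, and black bars are the mean ± SD. The line of Gfap is higher at its cKO end in all 4 pairs, while those of Vim, Nes and Synm are higher there in 2 of 4.

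On the log2(FPKM + 0.5) scale, Gfap was 1.35 higher in cKO than in WT (SE 0.34, 95% interval 0.59 to 2.11), a 2.55-fold difference with an interval of 1.504 to 4.31. In limma's test without pairing its Benjamini-Hochberg adjusted p over all genes was 0.435, and 0 of the 12339 genes (0%) passed 0.05, with 1310 genes (10.6%) at an unadjusted p under 0.05. With the replicate number as a block, the interval of the same difference was 0.93 to 1.76 and limma's adjusted p was 0.00521, so Gfap rose in that fit. The paired fit called 10.6% of all genes, 2.99% higher and 7.59% lower in cKO, and Gfap was 11th of all genes by the size of its rise in log2 units. Its adjusted p in limma remained under 0.05 with any pair left out, at 0.0344 when the left-out pair was number 1, 0.0173 for number 3, 0.00172 for number 4 and 0.0252 for number 5. The call thus held only in fits that used the pairing. In RNA pooled from tissue, a different number of contributing cells and a different amount of RNA per cell cannot be told apart.

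Vim was at 1063, 1696, 1598 and 1033 FPKM in cKO libraries 1, 3, 4 and 5, against 739, 1041, 1744 and 1171 FPKM in WT libraries 1, 3, 4 and 5. The groups overlapped throughout, and the highest library of all was WT 4. Means were 1347 ± 348 FPKM in cKO and 1174 ± 421 FPKM in WT (SD, n = 4 each; exact two-sided permutation p = 0.629). Vim was higher in cKO by 1.44-fold in pair 1 and 1.63-fold in pair 3, and was at 0.916 and 0.882 times the WT level in pairs 4 and 5. The log2 difference was 0.23, with a 95% interval of −0.37 to 0.83 (limma, adjusted p = 0.740) and of −0.13 to 0.59 with the pairing (limma, adjusted p = 0.369). The wider interval leaves room for differences between 0.775-fold and 1.78-fold.

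Nes, a large filament protein first known from neural stem cells, was at 9.57, 23.2, 12.5 and 8.84 FPKM in cKO libraries 1, 3, 4 and 5, against 9.02, 14.01, 16.6 and 11.6 FPKM in WT libraries 1, 3, 4 and 5. The cKO group held both the highest and the lowest library. Means were 13.5 ± 6.63 FPKM in cKO and 12.8 ± 3.23 FPKM in WT (SD, n = 4 each; exact two-sided permutation p = 1.0). The pairs went different ways, with 1.06-fold and 1.65-fold in pairs 1 and 3 and 0.756-fold and 0.763-fold in pairs 4 and 5. The log2 difference was 0.01, with an interval of −0.63 to 0.64 (limma, adjusted p = 0.994) and of −0.40 to 0.41 with the pairing (limma, adjusted p = 0.986), and its sign turned with several settings.

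Synm, which links desmin-type and vimentin-type filaments to other parts of the cytoskeleton, was at 8.98, 10.9, 9.48 and 8.54 FPKM in cKO libraries 1, 3, 4 and 5, against 8.80, 8.80, 10.1 and 8.82 FPKM in WT libraries 1, 3, 4 and 5. It varied least of the 4 genes, with a highest library 1.28 times the lowest, against 5.49 for Gfap, 2.36 for Vim and 2.62 for Nes. Means were 9.47 ± 1.02 FPKM in cKO and 9.12 ± 0.629 FPKM in WT (SD, n = 4 each; exact two-sided permutation p = 0.629). The pairs differed by 1.02-fold, 1.24-fold, 0.942-fold and 0.969-fold for numbers 1, 3, 4 and 5. The log2 difference of 0.05 had an interval of −0.19 to 0.29 (limma, adjusted p = 0.871) and of −0.17 to 0.26 with the pairing (limma, adjusted p = 0.770).

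**Figure D2:**
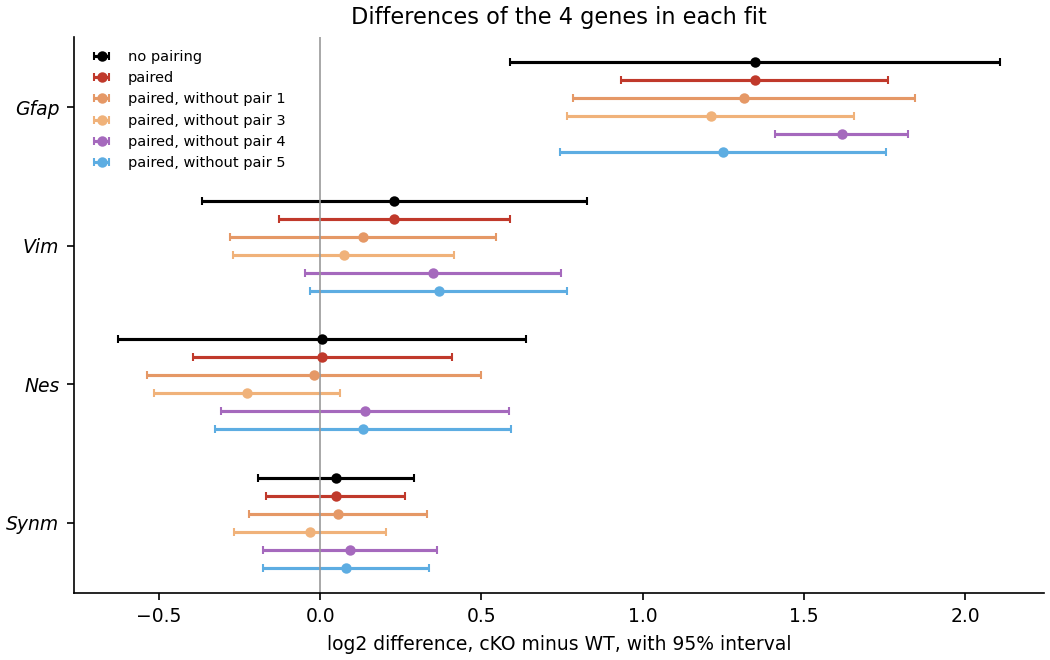
Log2 difference (x axis, cKO minus WT) of the 4 genes with its 95% interval in limma, without pairing, with pairing, and with pairing after leaving out each pair. All intervals of Gfap lie above 0, from a lowest bound of 0.59 to a highest of 2.11, and all intervals of Vim, Nes and Synm include 0.

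Because Gfap joins vimentin in the same filaments, its level was also expressed relative to Vim within each library, a measure that does not depend on how libraries were scaled. Gfap was at 14.6%, 17.9%, 15.1% and 16.8% of the Vim level in cKO libraries 1, 3, 4 and 5, against 7.62%, 8.59%, 9.50% and 4.72% in WT libraries 1, 3, 4 and 5. The lowest cKO library lay above the highest WT library, though the share of all genes whose ratio to Vim was apart was not computed. Means were 16.1% ± 1.55 in cKO and 7.61% ± 2.07 in WT (SD, n = 4 each). The log2 ratio was 1.12 higher in cKO, in 4 of 4 pairs, with an exact two-sided permutation p of 0.0286, the smallest that 70 assignments allow. Leaving out any single library gave 0.91 to 1.24. The ratio shows that the balance of the 2 genes differed between the groups, and does not by itself say which of them changed.

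**Figure D3:**
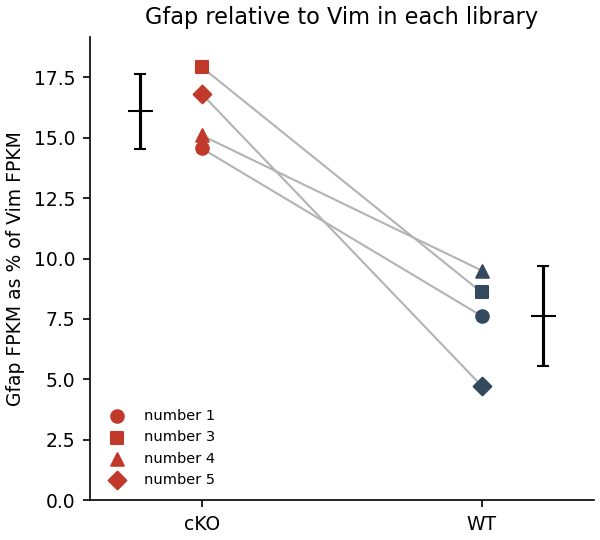
Gfap FPKM as a percentage of Vim FPKM (y axis from 0) in the 4 cKO libraries at left and the 4 WT libraries at right, with grey lines joining equal numbers and black bars for the mean ± SD. The cKO libraries lie between 14.6% and 17.9% and the WT libraries between 4.72% and 9.50%.

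The ratios of Gfap to the other 2 members were likewise apart, given here as a description. Gfap was 16.2, 13.1, 19.3 and 19.7 times the Nes level in cKO libraries 1, 3, 4 and 5, against 6.25, 6.39, 10.01 and 4.77 times in WT libraries 1, 3, 4 and 5. It was 17.2 to 27.9 times the Synm level in cKO libraries, against 6.28 to 16.5 times in WT libraries. Ratios among Vim, Nes and Synm overlapped between the groups, with log2 differences of 0.22 for Vim to Nes, 0.18 for Vim to Synm and −0.04 for Nes to Synm. Gfap is the member whose level relative to each of the other 3 was apart between the groups. The 3 ratios share the Gfap level, so they are not separate observations. The share of all genes with ratios apart in this way was not computed.

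Against the Müller cell markers, too, Gfap was apart between the groups, though the share of all genes apart on this scale was not computed. Its log2 level minus the mean log2 level of 18 Müller cell markers was −0.64, 0.34, −0.44 and −0.50 in cKO libraries 1, 3, 4 and 5, against −1.99, −1.59, −1.11 and −2.27 in WT libraries 1, 3, 4 and 5. For Vim the same difference was 2.14, 2.81, 2.29 and 2.07 in cKO libraries, against 1.71, 1.94, 2.28 and 2.12 in WT libraries, with overlap. In the fit without pairing on levels centred on these markers, Gfap differed by 1.43 (limma, adjusted p = 0.206), and 0 genes passed. All 18 Müller cell markers were measured, and their summed level was 9764 to 14310 FPKM in cKO libraries and 9844 to 16317 FPKM in WT libraries. With the pairing 0 of the 18 rose and 2 fell, the water channel gene Aqp4 and the transporter gene Abca8a, by 0.35 (limma, adjusted p = 0.0346) and 0.36 (limma, adjusted p = 0.0418) on the log2 scale. A fall of 2 of 18 is near the 7.59% of all genes that fell in this fit. Leaving out pair 1, 3 or 4 left 0 of these calls. The markers' median log2 difference was −0.10, against 0.004 for all genes.

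The labels and libraries were checked on Nfe2l2, the gene of Nrf2, which was at 13.6 ± 2.66 FPKM in cKO and 19.2 ± 2.66 FPKM in WT (SD, n = 4 each). All cKO libraries lay below all WT libraries, as in 2.28% of all genes. The exact two-sided permutation p was 0.0286, the smallest that 70 assignments allow. The log2 difference of Nfe2l2 was −0.50, and it ranked 11736th of 12339 genes from the largest rise, so other genes fell further. The adjusted p of limma for Nfe2l2 was 0.453 without and 0.0219 with the pairing, a call that was lost when pair 1, 4 or 5 was left out. Rpl22, the gene that carries the RiboTag, was at 163 ± 15.9 FPKM in cKO and 152 ± 15.1 FPKM in WT (SD, n = 4 each; limma, adjusted p = 0.709, and 0.329 with the pairing). Libraries summed to between 410581 and 448130 FPKM, and no fragment counts are given, so the depth is unknown and no counting interval was computed. Xist, an RNA of the inactive X chromosome of female cells, was at 25 and 50.0 FPKM in cKO 1 and 3 and at 0.0863 and 0.00505 FPKM in cKO 4 and 5, and was at 27 to 72.1 FPKM in WT. The labels give no sex, but pairs 4 and 5 set cKO libraries almost without Xist against WT libraries with it, so sex may differ within these pairs. Gfap differed by 1.76 and 1.45 in pairs 3 and 1, where both libraries had Xist, and by 1.64 and 0.54 in pairs 5 and 4. In the 6 libraries with Xist above 1 FPKM, Gfap differed by 1.39 without pairing (limma, adjusted p = 0.9998). With Xist as a covariate in all 8 libraries, Gfap differed by 1.45 (limma, adjusted p = 0.9999). The log2 ratio of Gfap to Vim differed by 1.13 in the 6 libraries. Its exact permutation p was 0.0667, the smallest that these 6 libraries allow.

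RNA of other retinal cells was present as well, and the astrocytes of the inner retina are the other source of Gfap. Of 12 astrocyte markers 9 were measured, and Pax2, which marks retinal astrocytes, was not among the genes of the table. Their summed level was 560 to 837 FPKM in cKO and 530 to 782 FPKM in WT, with a median log2 difference of 0.10. With the pairing S100b rose by 0.44 (limma, adjusted p = 0.0467), and the other 8 did not pass, among them Fabp7 at 0.52 (limma, adjusted p = 0.0605). The call of S100b was lost when pair 1, 4 or 5 was left out. Gja1 was apart between the groups, at 3.55 to 3.91 FPKM in cKO and 2.56 to 3.48 FPKM in WT, as were 2.06% of all genes. Its difference of 0.27 did not pass (limma, adjusted p = 0.232). In 4 of 4 pairs, 3 of the 9 were higher in cKO and 1 was lower, against 16.7% and 19.5% of all genes. Of all genes 2.99% were called higher and 7.59% lower in the paired fit. The part of astrocyte RNA in the difference of Gfap was not tested.

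Vimentin and nestin are also made by vessel and mural cells. Of 15 endothelial markers 3 were measured and 0 passed with the pairing, against 2.99% of all genes higher and 7.59% lower. Their summed levels were 47.3 to 66.9 FPKM in cKO and 46.5 to 73.9 FPKM in WT. Of 14 pericyte and smooth muscle markers 4 were measured, and their summed level was 58.5 to 70.6 FPKM in cKO and 39.4 to 52.6 FPKM in WT. The groups did not overlap in that sum, and Rgs5, a regulator of G protein signalling in pericytes, rose by 0.76 with the pairing (limma, adjusted p = 0.00277). Without Rgs5 the sum was 15.3 to 24.1 FPKM in cKO and 13.3 to 21.7 FPKM in WT, with overlap. The other 3 did not pass: Tagln had a log2 difference of 0.56, Col1a2 of 0.21 and Pdgfrb, a receptor of pericytes, of −0.25. Pdgfrb was lower in cKO in 4 of 4 pairs, as were 19.5% of all genes, but in pair 5 by only −0.0001. The muscle filament gene Des was not in the table. The part of mural cell RNA in the members' values was not tested.

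Across the 8 libraries the 4 genes moved partly together, which is given as a description. The correlation of log2 levels was highest for Nes with Synm (Pearson r = 0.896, Spearman correlation 0.833, n = 8) and lowest for Gfap with Nes (r = 0.5, Spearman correlation 0.381). After each group's mean was removed, Gfap correlated with Vim at 0.851, with Nes at 0.802 and with Synm at 0.806. Library cKO 3 was the highest cKO library and WT 4 the highest WT library for all 4 genes. These libraries are points that all such correlations share.

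The genes whose pattern was most like that of Gfap over the 8 libraries were Serpina3n, a protease inhibitor of reactive astrocytes (r = 0.983), A2m, which encodes the protease inhibitor alpha-2-macroglobulin (r = 0.975), Tmem208 (r = 0.969), Cnksr1 (r = 0.968) and Pgm2 (r = 0.958). With group means removed, the correlation of Gfap with Serpina3n was 0.959 and with A2m 0.978. Serpina3n spanned 14.2 to 65.2 FPKM in cKO libraries and 1.31 to 10.8 FPKM in WT libraries. A2m spanned 7.56 to 19.0 FPKM in cKO libraries and 3.99 to 10.96 FPKM in WT libraries. Cnksr1 spanned 2.66 to 2.90 FPKM in cKO libraries and 2.26 to 2.57 FPKM in WT libraries, and Pgm2 81.9 to 93.7 and 65.7 to 80.2 FPKM. Serpina3n, Cnksr1 and Pgm2 were thus apart between the groups, as were 2.06% of all genes, and A2m and Tmem208 were not. The 5 genes were picked by likeness to Gfap, so this is a description only.

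The genes most like Vim were E2f1 (r = 0.986), S100a16 (r = 0.986), S100a10 (r = 0.984), Rela (r = 0.983) and Vps26a (r = 0.982). S100a10 and S100a16 encode small calcium-binding proteins, E2f1 a cell cycle transcription factor and Rela a subunit of NF-κB. Those most like Nes were Cdc14a (r = 0.978), Frmd6 (r = 0.972), Cd44 (r = 0.967), Sgpl1 (r = 0.959) and Zfp438 (r = 0.959). Those most like Synm were Mrc2 (r = 0.980), Rras2 (r = 0.959), Cd44 (r = 0.958), Htra3 (r = 0.957) and Inpp5f (r = 0.956). Cd44, the hyaluronan receptor that rises in reactive glia of many tissues, was the gene that the lists of Nes and Synm shared. None of the 5 genes nearest Gfap was among the nearest 5 of another member.

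Among genes that are commonly induced with Gfap in reactive glia, 17 of 31 listed were measured. With the pairing 7 of these rose and 0 fell, against 2.99% and 7.59% of all genes. The list's median log2 difference was 0.34, against 0.004 for all genes. The table holds genes with a mean of at least 2.0006 FPKM over all libraries, and C3, C4b and Timp1 reached it through the cKO group alone, so they could be seen only as higher in cKO. Of the other 14 genes 5 rose and 0 fell, with a median of 0.29. Lcn2, which encodes the secreted iron-siderophore binding protein lipocalin, was at 8.98 to 82.0 FPKM in cKO and 1.35 to 3.69 FPKM in WT and rose by 3.15 in log2 units (limma, adjusted p = 0.0120). Serpina3n rose by 2.80 (limma, adjusted p = 0.00383), and C4b, a complement component, by 1.18 (limma, adjusted p = 0.0225), with levels of 2.96 to 7.14 FPKM in cKO and 0.726 to 2.70 FPKM in WT. These 3 were apart between the groups, as were 2.06% of all genes with cKO above WT, and C4b could be apart only in that direction. Timp1, an inhibitor of matrix metalloproteases, rose by 1.74 (limma, adjusted p = 0.0479), S100a6 by 0.86 (limma, adjusted p = 0.0499), and Fgf2 and Nupr1 were the other 2 that passed.

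The reactive genes and Gfap both differed most in pair 3 and least in pair 4, but pairs 1 and 5 were in opposite order. The median log2 difference of the reactive genes was 0.49 in pair 1, 0.79 in pair 3, 0.04 in pair 4 and 0.39 in pair 5. The difference of Gfap was 1.45, 1.76, 0.54 and 1.64 in the same pairs. The count of 7 rested on all pairs, since leaving out number 1 left 1 gene, number 3 left 2, number 4 left 7 and number 5 left 2. Without pairing 0 of the 17 passed, and 6 had an unadjusted p under 0.05 in limma and were higher in cKO, against 487 of all 12339 genes. The 17 include C3, C4b and Timp1, which could be seen only as higher. The list was drawn up with earlier results of these libraries known, so its direction is not independent evidence.

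**Figure D4:**
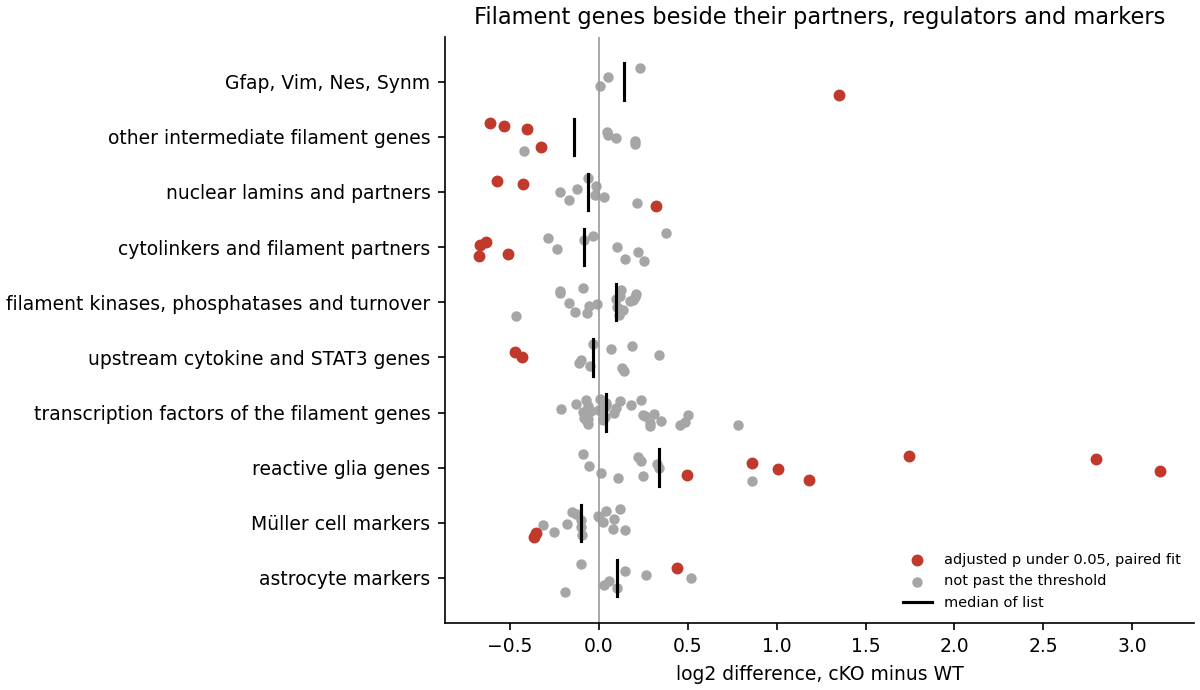
Log2 difference (x axis, cKO minus WT) of each measured gene of 10 lists, with red points for genes that passed in the paired limma fit and black bars for the list's median. Among the 4 filament genes Gfap stands alone at 1.35, and 7 of 17 reactive glia genes are red on the higher side.

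Of 21 other intermediate filament genes 10 were measured, and with the pairing 0 rose and 4 fell, against 2.99% and 7.59% of all genes, with a median log2 difference of −0.14. The genes of the light and medium neurofilament chains, which fill the axons of neurons, fell. Nefl was at 19.5 ± 2.14 FPKM in cKO and 28.5 ± 3.999 FPKM in WT, a log2 difference of −0.54 (SD, n = 4 each; limma, adjusted p = 0.00381). Nefm was at 10.9 ± 2.18 FPKM in cKO and 16.8 ± 2.46 FPKM in WT, a difference of −0.61 (SD, n = 4 each; limma, adjusted p = 0.00446). Both were apart between the groups, as were 2.28% of all genes with cKO below WT. Both were lower in cKO in 4 of 4 pairs, as were 19.5% of all genes. Nefh, the heavy chain, and Iffo1 fell by 0.40 (limma, adjusted p = 0.0363) and 0.32 (limma, adjusted p = 0.0223), with overlap. Of the 10 measured genes 5 had a log2 difference above 0, and none of these passed. Among them Ina was the most abundant gene of the list, at 47.3 ± 6.41 FPKM in cKO and 40.9 ± 5.45 FPKM in WT. Its difference of 0.20 did not pass (limma, adjusted p = 0.0955), and it was higher in cKO in 4 of 4 pairs, as were 16.7% of all genes. Between 2 and 3 genes of the list passed when a pair was left out.

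Nefl, Nefm and Nefh are also markers of retinal ganglion cells. Of 12 ganglion cell markers 8 were measured and 4 fell, these 3 and Sncg. The marker Rbpms alone had a difference above 0, of 0.12, which did not pass (limma, adjusted p = 0.644). The summed level of the 8 was 54.0 to 75.6 FPKM in cKO and 73.6 to 98.7 FPKM in WT. Of 14 amacrine and horizontal cell markers 9 were measured and 4 fell, with summed levels of 273 to 301 FPKM in cKO and 298 to 339 FPKM in WT. Of these 4, Tfap2a reached the lowest mean of the table through the WT group alone and could be seen only as lower in cKO. Bipolar cell markers were on the other side, with 5 of 12 higher, 0 lower and summed levels of 2283 to 2961 FPKM in cKO and 1868 to 2342 FPKM in WT. Of 12 rod markers 1 rose, Gngt1. Over all genes the paired fit called 2.99% higher and 7.59% lower. These counts moved with the pairs. With pair 1 left out 2 ganglion cell and 0 amacrine and horizontal cell markers passed, with pair 4 left out 2 and 1 passed, and with pair 4 or 5 left out 3 bipolar cell markers passed. Without pair 3, 1 amacrine and horizontal cell marker and 3 rod markers passed. The part of neuronal RNA in the neurofilament values was not tested.

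Cytolinkers are large proteins that tie intermediate filaments to actin, microtubules and junctions. Of 20 listed genes for these and other filament partners 13 were measured, and with the pairing 0 rose and 4 fell, against 2.99% and 7.59% of all genes, with a median log2 difference of −0.08. Macf1, which crosslinks microtubules and actin, was at 171 ± 53.5 FPKM in cKO and 266 ± 51.3 FPKM in WT, a log2 difference of −0.67 (SD, n = 4 each; limma, adjusted p = 0.00357). Dst, which encodes dystonin, fell by 0.51 (limma, adjusted p = 0.00409), Dmd, which encodes dystrophin, by 0.67 (limma, adjusted p = 0.00822), and Plec, which encodes the linker plectin that binds vimentin and Gfap filaments, by 0.64 (limma, adjusted p = 0.0141). Each of the 4 was lower in cKO in 4 of 4 pairs, as were 19.5% of all genes, and all 4 overlapped between the groups. Between 3 and 4 of the genes passed with a pair left out.

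Nuclear lamins, the intermediate filaments of the nucleus, and their partners gave 11 measured genes of 12. With the pairing 1 rose and 2 fell, against 2.99% and 7.59% of all genes, and no lamin gene was among these. Syne2 and Syne1, which encode giant nesprins that connect the nuclear envelope to the cytoskeleton, fell by 0.57 (limma, adjusted p = 0.00927) and 0.43 (limma, adjusted p = 0.0244). Banf1, a small chromatin-binding protein of the nuclear envelope, rose by 0.32 (limma, adjusted p = 0.0378), and Emd, which encodes emerin, had a difference of 0.21 that did not pass (limma, adjusted p = 0.0926). None of the list passed when pair 1 was left out, and 1 of the list passed without pair 4 and 1 without pair 5.

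The genes that fell in these groups include some of the longest transcripts. Macf1 has 23.5 kb, Dst 23.2 kb, Dmd 14.9 kb, Plec 15.5 kb, Syne2 21.7 kb and Syne1 27.9 kb in their longest annotated coding form. Over all genes, the median log2 difference was 0.15 for transcripts under 1 kb, 0.07 from 1 to 2 kb, 0.02 from 2 to 3 kb, −0.02 from 3 to 6 kb, −0.12 from 6 to 10 kb and −0.29 from 10 kb. With the pairing, 103 of 267 genes of at least 10 kb (38.6%) fell, against 5.36% of genes from 2 to 3 kb, the class of Gfap and Vim. Nes, at 6.13 kb, and Synm, at 7.82 kb, lie in a class with a median of −0.12. The part of transcript length in the values of the cytolinkers and nesprins was not tested.

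**Figure D5:**
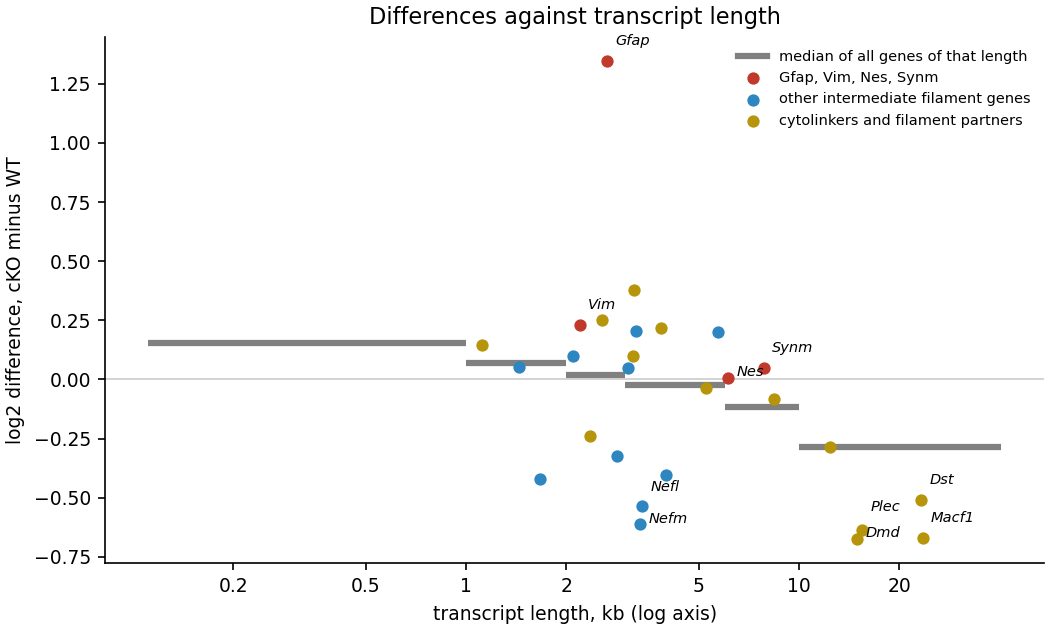
Log2 difference (y axis, cKO minus WT) against the length of the longest coding transcript (x axis, kb, log scale) for the 4 filament genes, other intermediate filament genes and cytolinkers, with grey bars for the median of all genes of each length class. Gfap lies at 2.65 kb and 1.35, while Macf1, Dst, Dmd and Plec lie beyond 10 kb and below the bar of −0.29.

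The route upstream of Gfap was examined from gp130-type cytokine receptors to STAT3. Of 19 listed genes 11 were measured, and Socs3, Lif and Il6 were not among them. With the pairing 0 rose and 2 fell, against 2.99% and 7.59% of all genes, with a median log2 difference of −0.03. Pias3, which encodes an inhibitor of STAT3, was at 63.4 ± 9.94 FPKM in cKO and 88.9 ± 20.02 FPKM in WT, a log2 difference of −0.47 (SD, n = 4 each; limma, adjusted p = 0.00626). Lifr, which encodes the receptor of leukaemia inhibitory factor, fell by 0.43 (limma, adjusted p = 0.0147). With pair 1, 3 or 4 left out, 1 gene of the list passed. Stat3 was at 32.9 ± 9.01 FPKM in cKO and 28.3 ± 2.96 FPKM in WT, with a difference of 0.18 that did not pass (limma, adjusted p = 0.238). Osmr, the oncostatin M receptor, had a difference of 0.34 (limma, adjusted p = 0.276).

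Transcription factors known to act on the filament genes did not pass the threshold. Of 36 listed 34 were measured, with a median log2 difference of 0.04, and with the pairing 0 passed, against 2.99% of all genes higher and 7.59% lower. The smallest p-values were those of Cebpd, at 13.7 ± 6.83 FPKM in cKO and 7.69 ± 3.86 FPKM in WT (SD, n = 4 each; difference 0.78; limma, adjusted p = 0.0699), the AP-1 genes Jund (0.25; limma, adjusted p = 0.0708) and Jun (0.26; limma, adjusted p = 0.0788), and Junb (0.50; limma, adjusted p = 0.115). With pair 4 left out 2 of the 34 passed.

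Kinases, phosphatases and proteases that take filaments apart or turn them over gave 20 measured genes of 23, with a median log2 difference of 0.10, and 0 passed with or without the pairing. The paired fit called 2.99% of all genes higher and 7.59% lower. The smallest adjusted p-values in the paired fit belonged to Rock1 (−0.22; limma, adjusted p = 0.0664) and Rock2 (−0.22; limma, adjusted p = 0.0869), kinases that phosphorylate vimentin and Gfap, and to Ppp1ca (0.20; limma, adjusted p = 0.0888) and Camk2a (−0.47; limma, adjusted p = 0.0958). Camk2a reached the lowest mean of the table through the WT group alone and could be seen only as lower in cKO.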

How the data were processed

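RNA from Müller cell ribosomes was measured in 8 libraries, 4 cKO and 4 WT. The authors deposited 1 table of FPKM with 12339 genes and 1 column per library. Its unit is given by the table's name, and the lowest mean of a gene was 2.0006 FPKM. STAR, edgeR, GRCm38 and mm10 are listed without role or version, per the submitters' processing notes. The counting tool, annotation and gene filter are not given in the sources used here. Differences between cKO and WT were estimated on log2(FPKM + 0.5), with no other scaling, in limma 3.58.1 under R 4.3.3. The test used eBayes with a trend and was two-sided, with Benjamini-Hochberg adjustment over all genes and a threshold of 0.05. The fit was tested on simulated data. Single values were compared by exact permutation of the group labels.

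Replicate numbers occur in both groups. With group means removed, libraries of the same number correlated across genes at 0.261 to 0.591 and those of different numbers at −0.479 to 0.211. Each same-numbered pair exceeded 0.1, the rule used to treat the numbers as pairs, but some libraries of different numbers did so too. The labels do not say what the numbers mean, so the pairing is an assumption drawn from these same data. A second fit took the number as a block, and the text calls it the paired fit.

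The 4 genes and all lists were chosen with earlier results of these data known. Beyond the 4 genes, Nfe2l2 and Rpl22, the rule named up to 4 genes of smallest p in the paired fit in each list, all that passed in the filament, lamin, cytolinker and STAT3 lists, and the 5 of highest Pearson r with each member. Marker genes, absent genes, Ina and further reactive glia genes that passed were added as context after their values were seen. Gene models came from GENCODE M21, which held 12327 of the gene IDs, and promoters from RefSeq (GRCm38.p6), matched by symbol for all 4 members. The other settings tried were other pseudocounts, scalings, a filter at a mean of 5 FPKM, library weights, other forms of eBayes, Xist as a covariate, and leaving out libraries or pairs.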

Additional observations from a re-analysis of the deposited data

Results flagged for a closer look

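Among 86 genes and ratios, each checked in both groups (172 checks), 5 had a library far from the other 3 of its group. Chance alone gives about 1 in 20, or more flags than were found. Synm was at 10.1 FPKM in WT 4, against 8.80 to 8.82 FPKM in the other WT libraries. WT 4 was also the highest WT library for Pgm2, at 80.2 FPKM against 65.7 to 67.1 FPKM, and for Mrc2, at 7.77 FPKM against 4.19 to 4.33 FPKM. The bipolar markers Lrtm1, at 70.4 FPKM in WT 1 against 54.1 to 56.0 FPKM in the other WT libraries, and Cabp5, at 182 FPKM in cKO 3 against 242 to 246 FPKM in the other cKO libraries, were the remaining 2.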

How the results depend on the processing

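Gfap was higher in cKO, and the Vim difference was above 0, under each of the settings run, although Vim ran from 0.03 to 0.44 with a library left out and from 0.07 to 0.37 with the block and a pair left out. For Gfap, the replicate block (pairing) was what brought limma's adjusted p under 0.05. The log2 difference was 1.35 with the block, 1.35 with the block and median-of-ratios scaling, 1.34 with a pseudocount of 1, 1.35 with 0.1 and 1.28 with quantile normalization, at adjusted p of 0.00492 to 0.00761, and 1.31, 1.21, 1.62 and 1.25 with pair 1, 3, 4 or 5 left out. Without the block, leaving out a library gave 1.16 to 1.68, and library weights gave an adjusted p of 0.0848. The number of genes past the threshold was 0 without the block and 1305 with it, 1300 with median-of-ratios scaling, 1320 and 1285 with pseudocounts of 1 and 0.1, 1064 with quantile normalization and 402, 606, 524 and 821 with pair 1, 3, 4 or 5 left out. It was 1 with library weights, 1 with Xist as a covariate and 1 in the 6 libraries with Xist. The Gfap to Vim ratio was 1.13 in those 6 libraries, with an exact permutation p of 0.0667, where the fewer libraries allow fewer assignments. The sign of Nes turned with TPM scaling (−0.027), library weights (−0.10) and several libraries left out (−0.28 to 0.17), and with the block without pair 1 (−0.019) or 3 (−0.23), where pairs left out gave up to 0.14. That of Synm turned without cKO 3 (−0.017, up to 0.094 over libraries left out) and with the block without pair 3 (−0.033). The cause was not tested. The block changed no call of the other 3 members.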
